A study of Mus musculus with 27 samples.

Results

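RNA polymerase II and Mediator are the machinery through which genes are read in every cell of the embryo, and this account follows the RNA of their subunits through inhibition and knockdown of histone acetyltransferases and deacetylases in mouse morulae. Members were chosen by symbol: every gene row named Polr2 with a letter from a to m, or Med with a number and an optional l. The rule found 43 genes of 55369 rows, 30 for Mediator and 13 for polymerase II, and used no measured value. Expression could be tested for 42 of them, because Med20, a head subunit, was counted at 0 in all 27 libraries. A count of 0 allows up to 0.193 to 0.43 CPM (counts scaled to the size of the library after TMM; the limit is 3 counts in a library), for counting error only. An overlapping gene model on the same strand, Gm20517, held 0 to 20 counts per library and covers 7.0% of the Med20 exons; of the 50-base words of Med20, 27.08% also occur in other gene models.

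Polymerase II transcribes the protein-coding genes. Its catalytic subunits are held by an assembly platform, carry a stalk that binds the emerging RNA, and share several small subunits with polymerases I and III. Mediator is a coactivator that bridges transcription factors and the polymerase: its head and middle contact the enzyme, the scaffold protein Med14 joins the modules, the tail receives activators, and a detachable kinase module with CDK8 or CDK19 and cyclin C regulates the whole. The acetyltransferases p300 and CBP are coactivators that acetylate histones at enhancers and promoters, and histone deacetylases remove those marks.

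The libraries held polyadenylated RNA of wild-type mouse embryos cultured to the morula stage, in pools of 15 to 20 and with 3 pools in each of 9 groups. In the inhibitor family, embryos received Vehicle, SAHA at 500 nM, TSA at 50 nM or A485 at 10 uM at embryonic day 2.5 and were collected at E2.75. SAHA and TSA block histone deacetylases, and A485 blocks the catalytic activity of p300 and CBP. In the siRNA family, embryos were injected at day 0.5 with siControl, siP300, siKat6a, siKat6b or siComb, whose contents the labels do not state, and were collected at the same stage. Kat6a and Kat6b encode acetyltransferases of the MYST family. The series text calls the pools biological replicates without saying whether they were prepared apart, so the p-values measure the spread between these pools, which may be technical. In pooled embryos, fewer cells of a type and less RNA per cell cannot be told apart.

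Library totals ran from 7557591 to 11988857 counts, of which the members took 0.465 to 0.637%. The groups carry the names of their labels, and the siRNA targets passed the test only in siComb, and there for Kat6a and Kat6b. Ep300, which encodes p300, lay at 11.4 to 27.7 CPM in siP300 against 22.7 to 28.9 CPM in siControl and did not pass the test (log2 fold change -0.43 ± 0.29, edgeR adjusted p = 0.259). Kat6a lay at 10.4 to 13.3 CPM in siKat6a against 15.8 to 18.1 CPM in siControl (-0.46 ± 0.20, edgeR adjusted p = 1), and Kat6b at 68.3 to 78.8 CPM in siKat6b against 100.4 to 114.6 CPM (-0.56 ± 0.27, adjusted p = 0.496). Neither passed, although every library of the knockdown lay below every control, whereas both fell in siComb (-0.64 ± 0.20 and -1.03 ± 0.28, adjusted p = 0.022 and 0.00815). Of 10 morula and early lineage markers, 9 were counted in every group but A485, where Cdx2 was also at 0, and Sox2 was at 0 throughout. MERVL-int, a retroviral element of the 2-cell stage, stood at 898 to 989 CPM in siP300 library 2, siKat6b libraries 1 and 3 and siComb library 2, against 20.4 to 158 CPM in the other siRNA libraries; CPM of this element and of marker sums are without TMM. It also stood at 244 CPM in Vehicle library 3, against 12.5 and 14.3 CPM in the other two. Results that rest on these libraries are given with and without them.

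In control morulae a small polymerase subunit, Polr2k, was the most abundant member per kilobase of exons and the catalytic subunit Polr2a the least abundant of the enzyme (mean ± SD, n = 3; CPM per kilobase of exons). Polr2k, a zinc-binding subunit shared by the 3 nuclear polymerases, was at 280.4 ± 6.78 in Vehicle and 617 ± 149 in siControl. Polr2a, the largest subunit with the catalytic site and the C-terminal tail, was at 5.6 ± 0.438 and 5.48 ± 0.994, and Polr2b, the second large subunit, at 24.8 ± 3.29 and 23.4 ± 2.67. Within Mediator, Med28 of the border between head and tail was highest in both controls, at 122 ± 13.8 and 134 ± 24.6. In siControl it did not differ beyond its spread from Med29 of the same border (118 ± 14.2), from Med10 of the middle (114 ± 6.94) or from Med6 of the head (107 ± 12.6). The tail subunits Med15, Med16, Med23, Med24 and Med25 lay between 1.42 and 4.71 in Vehicle.

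The kinase module was led by a paralog. Med12l was at 8.62 ± 1.28 in Vehicle and 10.6 ± 1.01 in siControl, while Med12, the subunit that activates the CDK8 kinase, was at 0.62 ± 0.052 and 0.216 ± 0.0703. The model Gm21986 overlaps 9.72% of the Med12 exons on the same strand. Other genes overlap 17.28% of the Med12l exons on the other strand. The part of these overlaps in the levels was not tested. The paralogs Med13 and Med13l, which tie the kinase to the core, were at 2.96 ± 0.216 and 2.65 ± 0.0431 in Vehicle, and at 4.27 ± 0.335 and 4.38 ± 0.288 in siControl, where they did not differ beyond their spread. These levels depend on the length used. The exons of Med13l span 15427 bases and its longest transcript 9296, against 10840 and 10546 bases for Med13. Per kilobase of the longest transcript, Med13l stands above Med13 in both controls. Levels per kilobase moved with transcript length: in Vehicle the median was 74.6 for 18 members with transcripts under 2000 bases and 5.15 for 12 members of 4000 bases or more. Protein-coding genes showed the same order at lower levels, with medians of 7.55 and 1.58.

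**Figure D1:**
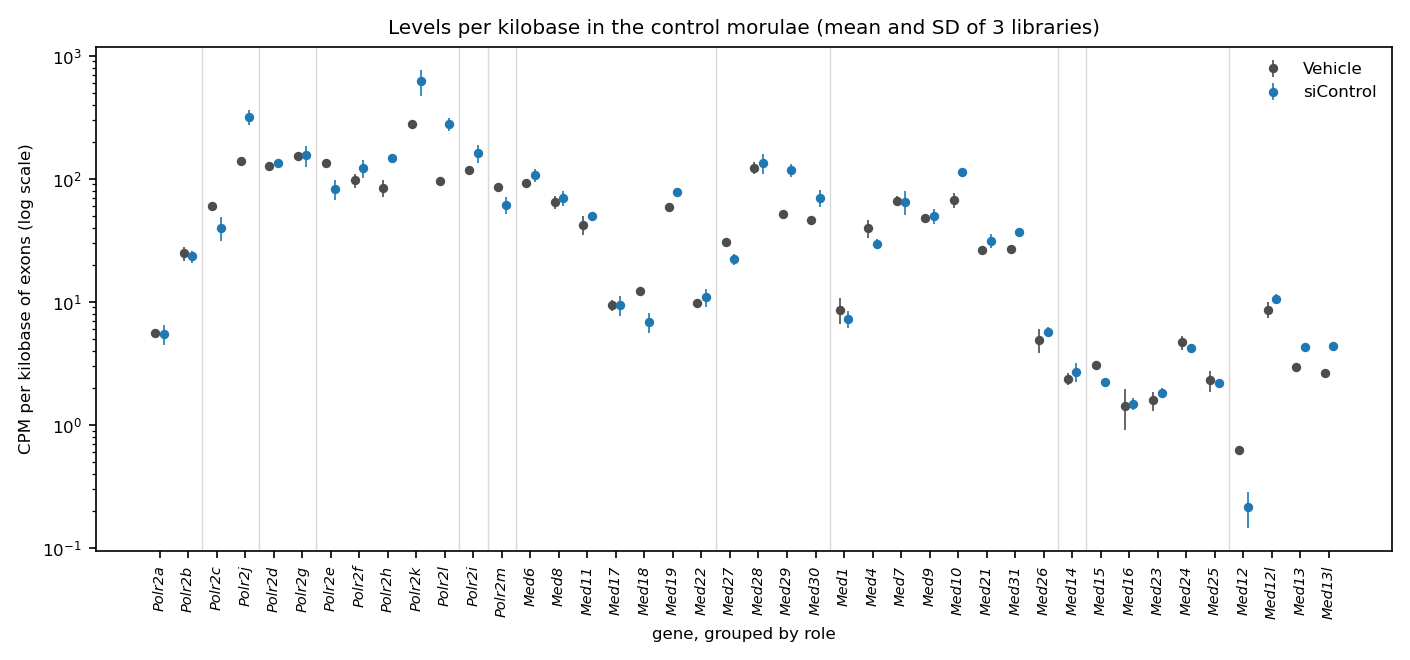
Levels of 42 members in the control groups, as CPM per kilobase of exons on a log axis, with points for the mean and bars for the SD of 3 libraries; Vehicle is grey and siControl blue, and lines separate the role groups. Med20 is not drawn. Polr2k is the highest point and Med12 the lowest, at 617 and 0.216 in siControl.

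The members are spread over the genome, with 8 of 43 on chromosome 11 and 2, Med12 and Med14, on X (GENCODE vM21, GRCm38). Members described in most comparisons include Polr2k (chr15:36174010-36177010, plus strand), Polr2i (chr7:30231948-30233390, plus strand), Med30 (chr15:52712408-52730564, plus strand), Med31 (chr11:72211724-72215592, minus strand) and Med14 (chrX:12675369-12762073, minus strand). RefSeq promoters (GRCm38.p6, 250 bases before to 50 after a start) were matched for 36 of 43 members, with 42 promoters. They were rich in CpG, with a median of 20 dinucleotides against 7 over all 32851 promoters. Motifs were searched on both strands. The GC box GGGCGG was in 64.29% of member promoters and 35.66% of all, the ETS letters CCGGAAG in 28.57% and 8.86%, and the NRF1 letters GCGCATGC in 14.29% and 2.71%. The TATA box TATAAA was in 11.9% and 13.62%, CCAAT in 35.71% and 37.41%, the YY1 letters AAGATGG in 9.52% and 6.34%, and the cyclic AMP element TGACGTCA in 2.38% and 1.79%. Of these motifs, the GC box, the ETS and NRF1 letters and the cyclic AMP element hold a CpG themselves, and the ETS and YY1 letters can overlap by the AAG they share; a match is a description of letters. Promoters are shown for a pair of members that rose with both deacetylase inhibitors, Polr2a and Med31, and for a pair that fell, Med12l and Med11; capitals mark the motifs, and each is written 5′ to 3′ on the strand of its gene. Polr2a (minus strand, chr11:69758584-69758883) has 3 GC boxes, with first bases at -93, -70 and -55 relative to the start, and a TATA box at -33. Med31 (minus strand, chr11:72215543-72215842) has the YY1 letters at -178. Med12l (plus strand, chr3:59006728-59007027) has a GC box on the other strand at -225. Med11 (plus strand, chr11:70451668-70451967) has none of the 7 motifs.
Polr2a: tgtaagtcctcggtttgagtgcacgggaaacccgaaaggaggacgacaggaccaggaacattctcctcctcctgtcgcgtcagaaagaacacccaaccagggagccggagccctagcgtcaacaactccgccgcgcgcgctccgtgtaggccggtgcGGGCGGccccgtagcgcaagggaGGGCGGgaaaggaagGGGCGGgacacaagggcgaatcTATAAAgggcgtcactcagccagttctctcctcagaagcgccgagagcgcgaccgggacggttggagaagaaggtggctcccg
Med31: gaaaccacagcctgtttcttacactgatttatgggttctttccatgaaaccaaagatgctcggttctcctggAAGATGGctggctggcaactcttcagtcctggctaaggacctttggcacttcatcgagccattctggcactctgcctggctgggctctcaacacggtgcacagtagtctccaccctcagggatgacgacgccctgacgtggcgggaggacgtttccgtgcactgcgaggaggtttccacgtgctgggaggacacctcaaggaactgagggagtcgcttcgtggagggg
Med12l: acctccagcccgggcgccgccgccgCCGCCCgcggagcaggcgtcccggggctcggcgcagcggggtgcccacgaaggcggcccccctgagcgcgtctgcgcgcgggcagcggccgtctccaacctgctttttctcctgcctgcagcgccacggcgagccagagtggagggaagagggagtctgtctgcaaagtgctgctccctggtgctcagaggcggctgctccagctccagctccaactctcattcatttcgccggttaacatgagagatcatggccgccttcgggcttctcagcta
Med11: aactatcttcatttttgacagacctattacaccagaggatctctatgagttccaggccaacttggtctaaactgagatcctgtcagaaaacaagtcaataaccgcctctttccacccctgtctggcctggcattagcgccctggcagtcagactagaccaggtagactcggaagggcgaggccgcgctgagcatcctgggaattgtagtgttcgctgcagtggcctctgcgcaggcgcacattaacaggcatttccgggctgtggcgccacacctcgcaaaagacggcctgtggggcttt

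With both deacetylase inhibitors, the catalytic subunit Polr2a and several small subunits of polymerase II rose, as did part of the Mediator middle, and Med12l, Med11 and Polr2m fell. With SAHA, 12 members rose, 4 fell and 26 did not pass the test, where 20.2% of 18297 genes tested were called higher and 14.0% lower. With TSA, 12 rose, 13 fell and 17 did not pass, where 31.6% were called higher and 26.6% lower. The median log2 fold change of members was -0.02 with SAHA and -0.21 with TSA, against 0.06 and 0.08 over all genes. A call is an adjusted p under 0.05 in edgeR's quasi-likelihood test, errors of fold changes are SE, and both comparisons share the Vehicle libraries. Members given for the largest fold changes were picked among those whose groups did not overlap. For them, lack of overlap here and in later comparisons is a condition of the choice and no further support.

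Polr2a was counted at 37.8, 43.1 and 37.7 CPM in Vehicle, 80.6, 74.8 and 77.6 CPM with SAHA and 64.5, 83.8 and 74.7 CPM with TSA. All 6 treated libraries lay above all 3 of Vehicle (log2 fold change 0.93 ± 0.23, edgeR adjusted p = 0.00606 with SAHA; 0.94 ± 0.23, adjusted p = 0.0027 with TSA). Polr2b was at 99.6, 117 and 130.3 CPM in Vehicle and 165, 160.0 and 181 CPM with TSA; it rose with TSA (log2 fold change 0.58 ± 0.21, edgeR adjusted p = 0.0295) and not with SAHA (0.27 ± 0.21, adjusted p = 0.34), and its TSA call was lost without Vehicle 1, Vehicle 2, TSA 1 or TSA 3.

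Of the assembly platform, Polr2j, a small partner of Polr2c, was at 151, 149 and 164 CPM in Vehicle, 364, 362 and 353 CPM with SAHA and 377, 363 and 438 CPM with TSA. It rose with both (1.17 ± 0.14 and 1.38 ± 0.15, edgeR adjusted p = 3.47e-05 and 2.72e-06), whereas Polr2c fell with TSA (log2 fold change -0.53 ± 0.15, edgeR adjusted p = 0.00686). The stalk subunit Polr2g went from 198, 173 and 199 CPM in Vehicle to 312, 342 and 435 CPM with SAHA and 489, 615 and 679.6 CPM with TSA, with no overlap between groups (0.89 ± 0.16 and 1.68 ± 0.17, edgeR adjusted p = 0.000855 and 1.44e-06). Its stalk partner Polr2d did not pass with either (0.35 ± 0.16 and 0.01 ± 0.16).

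The subunits shared with polymerases I and III rose in part: Polr2f, Polr2k and Polr2l with SAHA, and Polr2f and Polr2l with TSA. Both Polr2f calls were lost without Vehicle 3, the library high in MERVL-int (edgeR adjusted p = 0.0515 with SAHA and 0.0726 with TSA), without Vehicle 1 (0.0695 and 0.1), without SAHA 1 or TSA 1, and with all 27 libraries in 1 fit. Polr2l was at 149.5, 167 and 159 CPM in Vehicle, 360.0, 353 and 342 CPM with SAHA and 301, 328 and 331 CPM with TSA (1.10 ± 0.19 and 1.05 ± 0.19, edgeR adjusted p = 0.000568 and 0.000335). Polr2k rose with SAHA (log2 fold change 0.66 ± 0.14, edgeR adjusted p = 0.0025) but did not pass with TSA (0.28 ± 0.14, adjusted p = 0.0968). The TSA result depended on the setting: Polr2k was called higher with DESeq2 size factors in edgeR (adjusted p = 0.0187) and in DESeq2 (adjusted p = 0.00673). Of the 50-base words of Polr2k and Polr2l, 21.61 and 21.05% also occur in other gene models, as do 26.14% of those of Polr2c, so reads of near-identical copies may be counted elsewhere. Polr2i, the jaw subunit that takes part in proofreading, fell with TSA, from 148, 144 and 137 CPM to 65.0, 63.8 and 75.0 CPM (log2 fold change -1.03 ± 0.18, edgeR adjusted p = 0.000201).

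Polr2m encodes Gdown1, a protein that binds the polymerase and makes it depend on Mediator. It was at 196, 228 and 200 CPM in Vehicle, 90.5, 133 and 143 CPM with SAHA and 32.9, 38.1 and 62.7 CPM with TSA. The fall was called with SAHA (log2 fold change -0.81 ± 0.25, edgeR adjusted p = 0.0204) and with TSA (-2.19 ± 0.26, adjusted p = 7.73e-06), and every treated library lay below every Vehicle library. The SAHA call was lost without Vehicle 2 or SAHA 1.

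**Figure D2:**
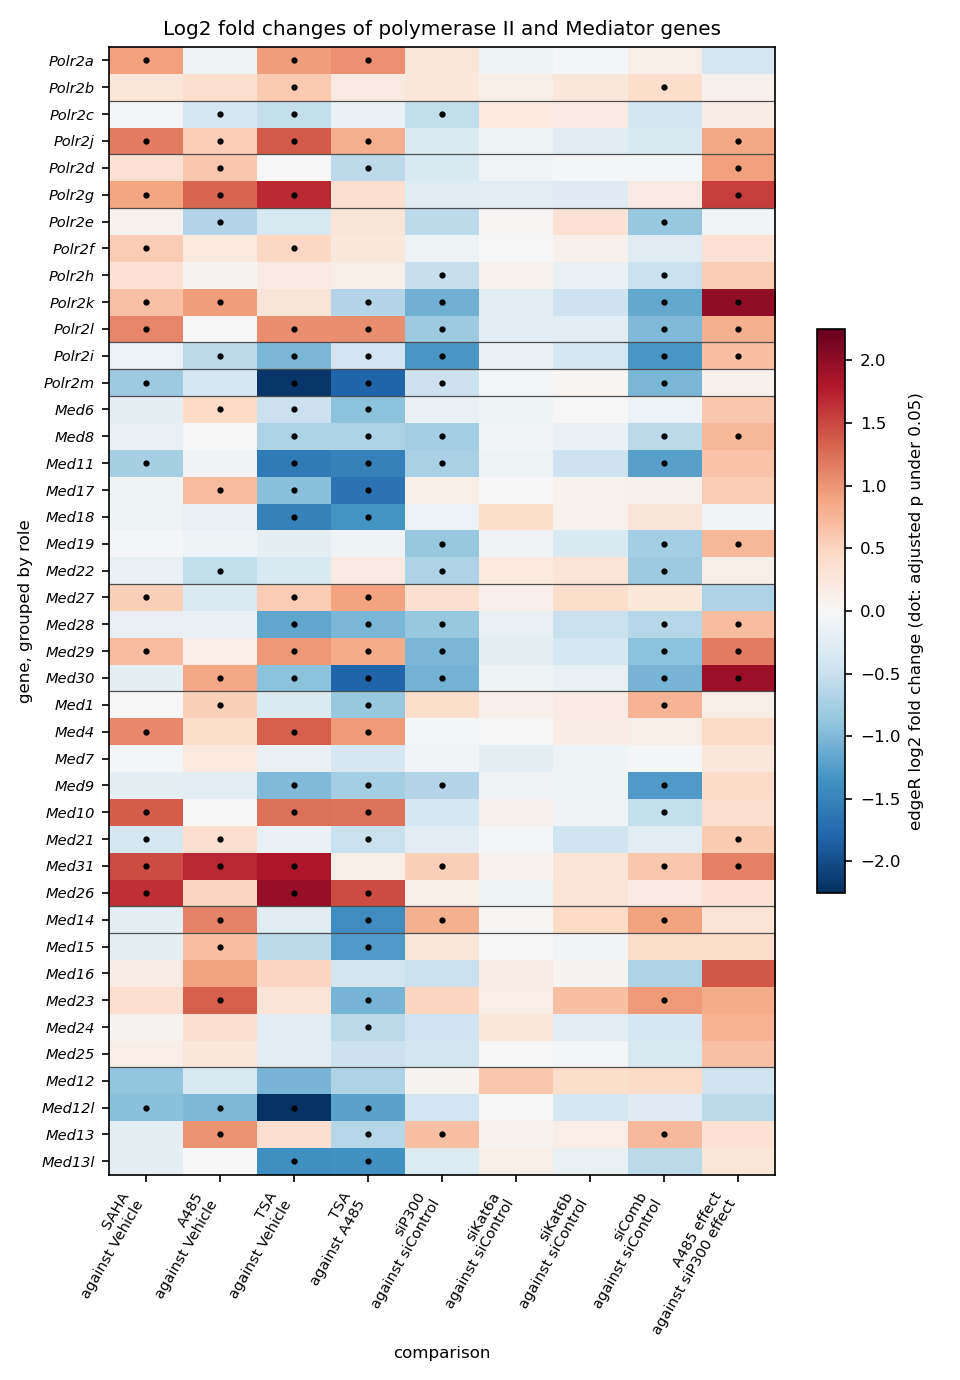
Colour gives the edgeR log2 fold change of 42 members in 9 comparisons (red higher, blue lower in the first group; the last column is the difference between the A485 and siP300 effects), and a dot marks adjusted p under 0.05. Lines separate role groups. Med31 is red in the SAHA, A485 and TSA columns (1.47, 1.69 and 1.82), and the siKat6a and siKat6b columns hold no dot.

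In the Mediator, the head fell with TSA in most of its members. Of 7 head members tested, 5 fell with TSA (Med6, Med8, Med11, Med17 and Med18) and 1 with SAHA, Med11, and none rose with either; the Med6 call was lost without Vehicle 3 or TSA 2. Med11, which pairs with Med22, was at 38.4, 53.1 and 41.7 CPM in Vehicle, 28.6, 27.1 and 26.7 CPM with SAHA and 13.2, 14.0 and 15.8 CPM with TSA (-0.74 ± 0.19 and -1.6 ± 0.19, edgeR adjusted p = 0.00704 and 8.93e-06). The 3 groups did not overlap, and the SAHA call was lost without Vehicle 2 (adjusted p = 0.0506). Med18, which forms a movable jaw with Med20, went from 24.6, 23.5 and 25.8 CPM to 6.59, 9.04 and 9.38 CPM with TSA (log2 fold change -1.52 ± 0.24, edgeR adjusted p = 8.63e-05), and Med17, the structural core of the head, from 36.5, 38.9 and 44.2 CPM to 17.5, 20.3 and 22.8 CPM (-0.94 ± 0.18, adjusted p = 0.000459). The 4 members at the border of head and tail split: Med27 and Med29 rose with both inhibitors (0.70 and 0.97 for Med29), and Med28 and Med30 fell with TSA (-1.18 ± 0.17 and -0.92 ± 0.20, edgeR adjusted p = 3.78e-05 and 0.00113).

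In the middle module, Med4, Med10, Med26 and Med31 rose with both inhibitors. Med26, which recruits elongation factors, was at 11.7, 18.3 and 14.2 CPM in Vehicle, 44.0, 40.0 and 58.2 CPM with SAHA and 48.1, 73.5 and 45.5 CPM with TSA. These were the largest rises among members in either comparison (1.64 ± 0.25 and 1.95 ± 0.25, edgeR adjusted p = 0.000185 and 1.42e-05). Of its exons, 12.71% lie opposite to those of Gm17435, which also rose (1.79 and 1.89); the strand setting of the counts is not given in the sources used here, so reads of the pair may not be told apart. Med31, a small subunit of the middle, was at 43.4, 48.1 and 48.2 CPM in Vehicle, 124, 144 and 131 CPM with SAHA and 152, 161 and 169 CPM with TSA (1.47 ± 0.13 and 1.82 ± 0.14, edgeR adjusted p = 2.8e-06 and 1.25e-07). Every treated library held more Med31 than any Vehicle library. The transcript 4930563E22Rik, which overlaps 26.3% of its exons on the other strand, did not pass in either (0.06 and 1.52).

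Med10, which joins the middle to Med14, was at 254, 309 and 339 CPM in Vehicle, 689, 819 and 886 CPM with SAHA and 661, 671 and 748 CPM with TSA (1.36 ± 0.15 and 1.24 ± 0.15, edgeR adjusted p = 1.12e-05 and 7.51e-06). Of its exons, 92.81% lie opposite to the model Gm26819, which has no row in the counts used here. As the strand setting is not given, reads of Gm26819 may be counted as Med10, in this and every other comparison. Med4 rose by 1.07 ± 0.16 and 1.35 ± 0.17 (edgeR adjusted p = 0.000222 and 1.1e-05), while its neighbour Med9 fell with TSA (-0.99 ± 0.17, adjusted p = 0.000183). Med21, which forms the hinge with Med7, was called lower with SAHA (log2 fold change -0.39 ± 0.14, edgeR adjusted p = 0.0407); leaving out any 1 of the 6 libraries removed that call. Med1, which binds nuclear receptors, did not pass with SAHA or TSA (-0.01 ± 0.18 and -0.32 ± 0.18, adjusted p = 0.971 and 0.142).

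Neither the scaffold gene Med14 (-0.22 ± 0.20 and -0.28 ± 0.20, edgeR adjusted p = 0.43 and 0.249) nor any of the 5 tail members passed with SAHA or TSA. In the kinase module, Med12l was at 128, 96.6 and 105 CPM in Vehicle, 61.9, 64.8 and 50.5 CPM with SAHA and 18.1, 26.6 and 24.4 CPM with TSA. All treated libraries lay below Vehicle (log2 fold change -0.94 ± 0.22, edgeR adjusted p = 0.0048 with SAHA; -2.22 ± 0.23, adjusted p = 2.62e-06 with TSA). Igsf10, one of the genes overlapping 17.28% of the Med12l exons on the other strand, fell with TSA (-2.15, adjusted p = 4.29e-05) and did not pass with SAHA (-0.52, adjusted p = 0.167). Med13l fell with TSA, from 40.4, 41.6 and 40.5 CPM to 19.5, 12.6 and 13.8 CPM (log2 fold change -1.38 ± 0.26, edgeR adjusted p = 0.000392), and did not pass with SAHA (-0.22 ± 0.25, adjusted p = 0.52). Med13 was at -0.22 ± 0.19 and 0.38 ± 0.19 and Med12, at 1.37 to 5.24 CPM in these 9 libraries, at -0.89 ± 0.47 and -1.05 ± 0.48. None of these passed. With TSA, Med13 was called higher with DESeq2 size factors in edgeR (adjusted p = 0.0264) and in DESeq2 (adjusted p = 0.0154). Med12 was called lower with TSA when TSA 3 was left out (edgeR adjusted p = 0.0447).

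In the same libraries, the 8 markers of the 2-cell stage summed to 5151 to 9979 CPM with SAHA and 18989 to 23944 CPM with TSA, against 15.4 to 565 CPM in Vehicle, with 8, 8 and 7 of them counted (Duxf3 was at 0 in Vehicle). The 10 morula markers summed to 1144 to 1206, 591 to 707 and 2893 to 3782 CPM. Mitochondrial counts made up 1.61 to 2.16% with SAHA and 2.51 to 3.57% with TSA, against 0.997 to 1.2% in Vehicle, and genes with at least 10 counts numbered 16011 to 16419 and 16362 to 16504, against 14643 to 14757. A list of 7 blood and immune markers summed to 21.5 to 26.1, 35.9 to 62.4 and 17.5 to 21.3 CPM, with 6, 6 and 5 counted (Hbb-bs at 0 in all 3 groups and Lyz2 in Vehicle). The part of these measures in the changes of members was not tested. Without Vehicle 3, high in MERVL-int, the number of called members was 14 with SAHA and 23 with TSA.

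With A485, the inhibitor of p300 and CBP, Med31, Med14, Med13 and both stalk subunits rose and Med12l and Polr2e fell. Of the members, 14 rose, 5 fell and 23 did not pass, where 21.4% of genes were called higher and 24.2% lower. The median log2 fold change was 0.22 for members and -0.06 for all genes. The comparison shares its Vehicle libraries with those of SAHA and TSA.

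Polr2g of the stalk rose from 198, 173 and 199 CPM to 454, 497 and 499.9 CPM (log2 fold change 1.31 ± 0.16, edgeR adjusted p = 1.95e-05), and Polr2d from 123, 129.9 and 134 CPM to 199, 178 and 226 CPM (0.60 ± 0.16, adjusted p = 0.00638), with no overlap for either. The catalytic subunit showed no call: Polr2a was at 54.4, 26.0 and 34.8 CPM with A485 (log2 fold change -0.08 ± 0.23, edgeR adjusted p = 0.807), a spread that took in all 3 Vehicle libraries. Polr2j (0.56 ± 0.14) and Polr2k (0.94 ± 0.14) rose as well, with edgeR adjusted p = 0.00538 and 0.000103. Polr2e, a shared subunit near the downstream DNA, fell from 338, 361 and 379 CPM to 221, 226 and 257 CPM (log2 fold change -0.65 ± 0.17, edgeR adjusted p = 0.00547). Polr2i fell to 107, 79.2 and 104 CPM (-0.60 ± 0.18, adjusted p = 0.0124), a call lost without A485 2 (adjusted p = 0.0564). Tbcb, which covers 26.82% of the Polr2i exons on the other strand, fell too (-0.47, adjusted p = 0.0229).

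Med31 reached 148, 162 and 153 CPM with A485, above every Vehicle library (log2 fold change 1.69 ± 0.13, edgeR adjusted p = 3.21e-07). Med14 was at 22.1, 22.1 and 18.1 CPM in Vehicle and 49.1, 44.5 and 45.7 CPM with A485 (log2 fold change 1.12 ± 0.20, edgeR adjusted p = 0.000402), and the groups did not overlap. Med23, a tail subunit that responds to MAP kinase signals, rose from 12.7, 9.24 and 9.84 CPM to 29.9, 21.6 and 31.8 CPM (log2 fold change 1.35 ± 0.24, edgeR adjusted p = 0.000411). Med13 of the kinase module rose from 34.3, 29.6 and 32.2 CPM to 80.4, 62.4 and 57.1 CPM (1.02 ± 0.19, adjusted p = 0.000529). Its paralog Med13l did not pass (-0.01 ± 0.25, adjusted p = 0.981), nor did Med12 (-0.36 ± 0.46, adjusted p = 0.551).

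Med12l fell to 73.8, 52.5 and 42 CPM with A485 (log2 fold change -1.01 ± 0.22, edgeR adjusted p = 0.00193), while the overlapping Igsf10 rose (1.05, adjusted p = 0.00584). In the head, Med6 and Med17 rose (0.45 ± 0.15 and 0.72 ± 0.17) and Med22 fell (-0.56 ± 0.20), with edgeR adjusted p = 0.0279, 0.00394 and 0.0385. Of these, Med17 kept its call whichever library was left out. The Med22 call was lost without any 1 Vehicle library or A485 1 or 2, and the Med6 call without any 1 Vehicle library or A485 2 or 3. Med30 rose from 53.0, 52.9 and 59.5 CPM to 100.4, 109 and 103 CPM (0.88 ± 0.19, adjusted p = 0.0019). Med1 rose (0.54 ± 0.18, adjusted p = 0.0253), a call lost without Vehicle 1, Vehicle 2, A485 2 or A485 3. Med15, a tail subunit that binds lipid regulators, was called higher (0.67 ± 0.25, adjusted p = 0.0401) although its groups overlapped. Its call was lost without any 1 of these libraries but A485 2. Those of Polr2c (-0.38 ± 0.15) and Med21 (0.36 ± 0.14) were also lost without any 1 Vehicle library.

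The share of mitochondrial counts was 2.36 to 2.62% with A485 and 0.997 to 1.2% in Vehicle, and 7 blood and immune markers summed to 36.8 to 64.8 CPM against 17.5 to 21.3 CPM, with 5 of 7 counted in each (Hbb-bs and Cd3e at 0 with A485; Hbb-bs and Lyz2 in Vehicle). Their part was not tested. Without Vehicle 3, the library high in MERVL-int, 14 members were called.

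Deacetylase and acetyltransferase inhibition were set against each other directly, at 50 nM TSA and 10 uM A485. Of the members, 8 were higher and 21 lower with TSA than with A485, where 36.1% of genes were called higher and 27.4% lower. The median difference was -0.50 for members and 0.27 for all genes (log2). Mediator, which holds 29 of the 42 members tested, made up 17 of the 21 lower calls. Among them were 5 of 7 head, 3 of 5 tail and 3 of 4 kinase module members.

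Polr2a, Polr2l, Med10 and Med26 were the members called higher with TSA by the widest margins (1.02 ± 0.23, 1.04 ± 0.19, 1.23 ± 0.15 and 1.47 ± 0.24; edgeR adjusted p = 0.00131, 0.000285, 6.17e-06 and 0.000121). On the other side, the differences were -1.81 ± 0.26 for Polr2m, -1.80 ± 0.20 for Med30, -1.66 ± 0.18 for Med17 and -1.52 ± 0.19 for Med11 (edgeR adjusted p = 3e-05, 3.07e-06, 2.64e-06 and 1.03e-05). Med30 was at 22.9, 38.9 and 23.6 CPM with TSA and 100.4, 109 and 103 CPM with A485. Med14 (-1.40), Med13l (-1.37), Med1 (-0.86) and Med13 (-0.64) were lower with TSA as well, with edgeR adjusted p = 3.73e-05, 0.00035, 0.00092 and 0.00839. The Med13 call was lost without TSA 2 (adjusted p = 0.0545), and Med12 did not pass (-0.69 ± 0.48, adjusted p = 0.219). The Polr2i call was lost without A485 3, TSA 1 or TSA 2, and that of Med24 without A485 2, A485 3, TSA 2 or TSA 3. Neither passed in DESeq2 (adjusted p = 0.119 for Polr2i and 0.0829 for Med24). Both calls were also lost with DESeq2 size factors in edgeR, with a filter at a mean of 5 CPM and with a fit of just the groups compared. Med31 did not pass between the inhibitors (0.13 ± 0.13, adjusted p = 0.399), and both groups lay above Vehicle.

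**Figure D3:**
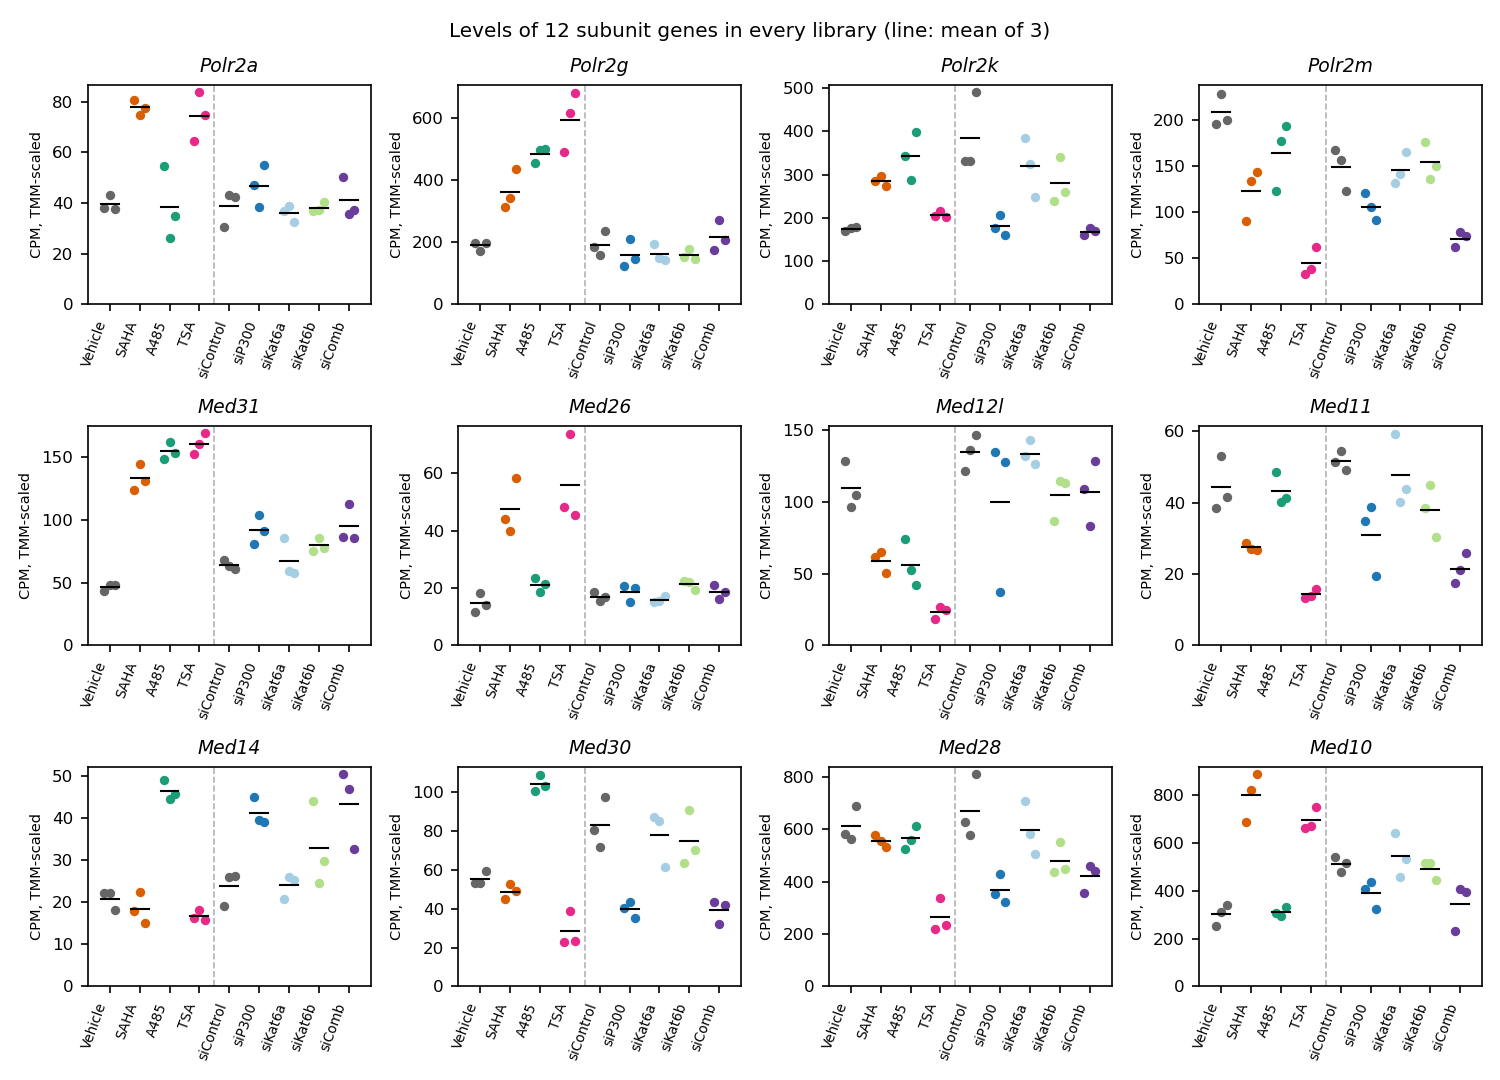
CPM (TMM-scaled, axes from 0) of 12 members in every library, as points, with lines for the mean of 3; a dashed line parts the inhibitor from the siRNA family. Polr2a is high with SAHA and TSA, at 74.8 to 80.6 CPM and 64.5 to 83.8 CPM, and Med14 is high with A485, siP300 and siComb, at 44.5 to 49.1 CPM, 39.0 to 45.1 CPM and 32.8 to 50.5 CPM.

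In both siP300 and siComb, 4 of 7 Mediator head members, 3 of 4 border members and the small polymerase subunits Polr2h, Polr2i, Polr2k and Polr2l fell, and Med13, Med14 and Med31 rose. In siP300, 3 members rose, 14 fell and 25 did not pass, where 19.7% of 19180 genes were called higher and 15.7% lower; without siControl 1, 10 members were called, 1 higher and 9 lower. In siComb, 6 rose, 15 fell and 21 did not pass, where 19.6% were called higher and 17.1% lower. Both comparisons share the siControl libraries. The median log2 fold change of members was -0.33 in siP300 and -0.32 in siComb, against 0.12 and 0.09 over all genes. These splits depended on scaling: with libraries scaled by library size alone, without TMM, the median over all genes moved to 0.45 and 0.36, 8 members rose and 7 fell in siP300, and 6 rose and 9 fell in siComb. Among all called genes the share called higher moved from 55.8 to 77.0% and from 53.5 to 70.4%.

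Of the 5 subunits shared with polymerases I and III, 3 fell in siP300 and 4 in siComb, and none rose. Polr2k was at 331, 331 and 492 CPM in siControl, 177, 206 and 161 CPM in siP300 and 160.2, 176 and 169 CPM in siComb. No library of either group reached the lowest control (-1.07 ± 0.20 and -1.15 ± 0.20, edgeR adjusted p = 0.000831 and 0.000393). Polr2l fell from 401, 472 and 505 CPM to 258, 303 and 214 CPM and 213, 222 and 234 CPM (-0.82 ± 0.17 and -1.0 ± 0.17, edgeR adjusted p = 0.00194 and 0.000348). Polr2e fell in siComb (-0.86 ± 0.27, adjusted p = 0.0202) and did not pass in siP300 (-0.59 ± 0.27, adjusted p = 0.0962); without siP300 2 its adjusted p was 0.0079, and the siComb call was lost without siControl 1, siComb 1 or siComb 2. Polr2h was called lower in both (-0.53 ± 0.18 and -0.50 ± 0.18). Its siP300 call was lost without siControl 2, siControl 3, siP300 1 or siP300 3, and with library size alone. Its siComb call was lost without any 1 siControl or siComb library (edgeR adjusted p = 0.0557 to 0.116). It was also lost in siComb with DESeq2 size factors (0.0616) and with library size alone (0.256). Polr2c, called lower in siP300 (-0.56 ± 0.20, adjusted p = 0.0383), had overlapping groups, at 234, 237 and 156 CPM and 155, 163 and 104 CPM, and lost its call without siControl 1, siControl 2 or siP300 3.

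Polr2i of the jaw showed the largest fall of any member in both. It was at 171, 183 and 231 CPM in siControl, 80.2, 74.8 and 80.9 CPM in siP300 and 67.5, 70.9 and 90.1 CPM in siComb (-1.30 ± 0.18 and -1.31 ± 0.18, edgeR adjusted p = 6.03e-05 and 3.79e-05). The overlapping Tbcb fell by less (-0.67 and -0.67). Polr2m fell in siComb, to 61.9, 78.4 and 73.6 CPM from 167, 156 and 123 CPM (log2 fold change -1.02 ± 0.17, edgeR adjusted p = 0.000291), and in siP300 (-0.48 ± 0.17, adjusted p = 0.0395), where library size alone (adjusted p = 0.457) and leaving out siControl 1, siControl 2, siP300 2 or siP300 3 removed the call, as did leaving out the libraries high in MERVL-int (0.0604). Of the large subunits, Polr2a did not pass in siP300 or siComb (0.28 ± 0.20 and 0.13 ± 0.20, edgeR adjusted p = 0.278 and 0.631), although with library size alone it was called higher in siP300 (adjusted p = 0.0363). Polr2b rose in siComb (0.40 ± 0.15, adjusted p = 0.0415), a call lost without siControl 1, siControl 2, siComb 1 or siComb 2 and without the libraries high in MERVL-int (adjusted p = 0.171).

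Of the 4 border members, Med28, Med29 and Med30 fell in both groups. Med30 was at 80.2, 71.6 and 97.3 CPM in siControl, 40.1, 43.4 and 35.2 CPM in siP300 and 43.3, 32.1 and 42 CPM in siComb, without overlap (-1.06 ± 0.21 and -1.04 ± 0.21, edgeR adjusted p = 0.000962 and 0.000942). Med29 fell from 135, 148 and 171 CPM to 63.8, 87.2 and 69.3 CPM and 69.6, 88.5 and 75.8 CPM (-1.04 ± 0.19 and -0.92 ± 0.19, edgeR adjusted p = 0.000706 and 0.00146). In the head, Med8, Med11, Med19 and Med22 fell in both. Med11 was at 51.3, 54.5 and 49.2 CPM in siControl, 34.7, 38.8 and 19.4 CPM in siP300 and 17.6, 21.0 and 26.0 CPM in siComb (-0.73 ± 0.25 and -1.22 ± 0.25, edgeR adjusted p = 0.0324 and 0.00138). Its siP300 call was lost without siP300 3 (adjusted p = 0.142) or any 1 siControl library, and with library size alone. That of Med22 in siP300 was lost without siControl 1 and without the libraries high in MERVL-int (adjusted p = 0.0506), and that of Med8 in siComb without siControl 1, siControl 3 or siComb 1; Med28 lost its siComb call without siControl 3 or siComb 1.

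Med9 of the middle fell in siComb from 110.0, 93.7 and 83.7 CPM to 35.9, 39.0 and 41.0 CPM (log2 fold change -1.27 ± 0.20, edgeR adjusted p = 0.000148) and in siP300 (-0.67 ± 0.20, adjusted p = 0.0155), where it was lost without siControl 1 or siP300 3. Med10 also fell in siComb (-0.53 ± 0.20, adjusted p = 0.046), a call lost without any 1 siControl library or siComb 1. Med31 rose in both, from 67.8, 62.8 and 60.8 CPM to 80.9, 104 and 91.2 CPM in siP300 and 86.5, 112 and 85.4 CPM in siComb (0.54 ± 0.18 and 0.61 ± 0.18, edgeR adjusted p = 0.0271 and 0.0136). Without the libraries high in MERVL-int the adjusted p was 0.101 and 0.0595. Leaving out siControl 3 removed either call, as did siControl 1, siControl 2 or siP300 2 for siP300 and siComb 2 for siComb. Med1 rose in siComb, at 132, 90.3 and 92.8 CPM against 54.9, 61.9 and 74.2 CPM (log2 fold change 0.77 ± 0.21, edgeR adjusted p = 0.00874), a call lost without siComb 1 (adjusted p = 0.063), and did not pass in siP300 (0.39 ± 0.21, adjusted p = 0.152).

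Med14 was at 19.0, 26.0 and 26.3 CPM in siControl, 45.1, 39.5 and 39.0 CPM in siP300 and 50.5, 47.0 and 32.8 CPM in siComb, with every treated library above every control (0.80 ± 0.23 and 0.91 ± 0.23, edgeR adjusted p = 0.0124 and 0.00546). The siP300 call was lost without siControl 1 (adjusted p = 0.073). Med13 rose from 42.8, 50 and 46.2 CPM to 72.6, 58.5 and 89.2 CPM and 82.8, 77.0 and 65.0 CPM (0.67 ± 0.17 and 0.73 ± 0.17, edgeR adjusted p = 0.00673 and 0.0034). Med23 of the tail rose in siComb (0.97 ± 0.25, adjusted p = 0.00686) and did not pass in siP300 (0.49 ± 0.25, adjusted p = 0.138); without siP300 2 its adjusted p was 0.0321. Med12, Med12l and Med13l did not pass in either; Med12l was at 134, 37.4 and 128 CPM in siP300, where library 2, high in MERVL-int, stood below the other two, and Med13l was at -0.30 ± 0.26 and -0.61 ± 0.26 and Med12 at 0.07 ± 0.54 and 0.44 ± 0.54.

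Several measures moved with these groups. Mitochondrial counts made up 4.94 to 6.99% in siP300 and 4.86 to 5.41% in siComb, against 1.94 to 2.45% in siControl. Genes with at least 10 counts numbered 17495 to 19122 and 16695 to 17367, against 15502 to 15845. The 7 blood and immune markers summed to 73.9 to 182, 115 to 161 and 11.5 to 16.0 CPM, with 5, 6 and 6 counted (Hbb-bs was at 0 in all 3 groups and Ptprc in siP300). The 8 cumulus and granulosa markers summed to 9.02 to 16.5, 7.39 to 12.2 and 0.896 to 1.55 CPM, with 7, 7 and 5 counted (Fshr at 0 in siP300, Amh in siComb, and Amh, Has2 and Ptx3 in siControl). The 8 markers of the 2-cell stage summed to 182 to 1120, 71.7 to 1538 and 24.5 to 36.2 CPM, with 8, 8 and 7 counted (Duxf3 at 0 in siControl). The part of these measures in the changes of members was not tested. MERVL-int was at 151 and 158 CPM in the other siP300 libraries and 61.8 and 71.6 CPM in those of siComb, against 21.2 to 32.8 CPM in siControl, so leaving out the 4 did not remove that difference. Without the 4 siRNA libraries high in MERVL-int, 3 members rose and 14 fell in siP300, and 4 rose and 15 fell in siComb. Beside the lost calls given above, Polr2d and Polr2e were then called lower in siP300 (edgeR adjusted p = 0.0138 and 0.00331) and Med23 higher (0.0402).

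In embryos injected with siKat6a or siKat6b alone, no member passed the test. With siKat6a, edgeR called 0 of 42 members and 0.0% of genes; at an unadjusted p under 0.05 there were 0 members and 410 genes, and DESeq2 called 0 members and 2 genes. With siKat6b, edgeR called 0 members and 0.0209% of genes (4 genes); 6 members and 2002 genes had an unadjusted p under 0.05, and DESeq2 called 0 members and 237 genes. Those 6 were Polr2k, Polr2i, Med19, Med28 and Med21, which were lower in siKat6b (-0.47, -0.39, -0.34, -0.50 and -0.45), and Med23, which was higher (0.68); their edgeR adjusted p ran from 0.323 to 0.458, and they were named after their values were seen. Polr2a was at 36.7, 38.7 and 32.4 CPM in siKat6a and 36.7, 37.2 and 40.2 CPM in siKat6b, against 30.7, 43.1 and 42.5 CPM in siControl (-0.10 ± 0.20 and -0.04 ± 0.20). Med1 (0.11 and 0.19), Med12 (0.61 and 0.40), Med13 (0.08 and 0.14), Med13l (0.13 and -0.17) and Med14 (0.02 and 0.44) did not pass. Med14 was at 44.0, 24.6 and 29.8 CPM in siKat6b, where library 1 stood above libraries 2 and 3. Of these, libraries 1 and 3 were both high in MERVL-int. A p that misses the threshold does not show that a knockdown left these genes as they were, and the targets themselves did not pass.

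Inhibiting p300 and CBP by A485 and injecting siP300 had different effects on 13 members, tested as the A485 effect minus the siP300 effect in 1 fit of all 27 libraries. All 13 differences were above 0, and 29 members did not pass, where 10.4% of 20744 genes were called above 0 and 16.1% below. The median difference was 0.50 for members and -0.31 for all genes (log2), and 36 of 42 members lay above 0. The contrasts have separate controls, but the agents also differ in route and in time, from day 2.5 or day 0.5, and these cannot be told apart from the kind of agent. With library size alone, 8 members were called above 0 and 1, Med27, below (adjusted p = 0.0111), while the median over all genes moved to -0.56 and the share of calls above 0 among all genes from 39.1 to 25.2%.

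Polr2k and Med30 moved in opposite directions. Polr2k rose with A485, from 170.2, 177 and 178 CPM to 343, 288 and 399 CPM, and fell in siP300, and its effects differed by 1.99 ± 0.25 (edgeR adjusted p = 2.21e-06). Med30 likewise rose with A485 (0.88) and fell in siP300 (-1.06), a difference of 1.92 ± 0.28 (edgeR adjusted p = 2.11e-05). Polr2g rose with A485 (1.31) and did not pass in siP300, at 184, 159 and 235 CPM in siControl and 123, 209.7 and 146 CPM in siP300; the effects differed by 1.56 ± 0.28 (edgeR adjusted p = 0.000217). For Med29 the difference was 1.16 ± 0.23 (edgeR adjusted p = 0.000559), from 0.14 with A485, which did not pass, and -1.04 in siP300. Med29 was at 66.9, 61.8 and 69.5 CPM in Vehicle and 77.3, 70.8 and 76.8 CPM with A485. It was at 135, 148 and 171 CPM in siControl and 63.8, 87.2 and 69.3 CPM in siP300. The treated groups thus overlapped and the controls stood apart. Controls also stood apart for Polr2k (170.2 to 178 CPM in Vehicle, 331 to 492 CPM in siControl) and Med30 (53.0 to 59.5 and 71.6 to 97.3 CPM). So did those of Polr2j (149 to 164 and 307 to 406 CPM), Polr2l (149.5 to 167 and 401 to 505 CPM), Med31, Polr2i and Med19. Polr2k lay at 288 to 399 CPM with A485 and 161 to 206 CPM in siP300. Its A485 libraries thus overlapped siControl, and its siP300 libraries overlapped Vehicle. For Polr2g the controls overlapped. Med31 rose in both contrasts and by more with A485 (difference 1.14 ± 0.21, edgeR adjusted p = 0.000341).

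The other 8 were Polr2j, Polr2d, Polr2l, Polr2i, Med8, Med19, Med28 and Med21, with differences from 0.59 to 0.93. Of these, Polr2l, Polr2i, Med8, Med28 and Med21 lost their calls without single libraries in both contrasts, siControl 3 among them for each; Med8 and Polr2i lost theirs without Vehicle 3 (adjusted p = 0.053 and 0.093), and Polr2i without the libraries high in MERVL-int (0.0694). Med14 rose in both contrasts (1.12 and 0.80), and its effects were not shown to differ (log2 fold change 0.30 ± 0.30, edgeR adjusted p = 0.496). The same held for Med13 (1.02 and 0.67; difference 0.32 ± 0.24, adjusted p = 0.359). Polr2a, Med1, Med12 and Med13l had differences of -0.38 ± 0.30, 0.13 ± 0.28, -0.45 ± 0.69 and 0.26 ± 0.37, and none passed. Without the libraries high in MERVL-int, 14 members were called above 0 and 1, Med12l, below (adjusted p = 0.013). Med6 and Polr2h were among the 14 (edgeR adjusted p = 0.0127 and 0.0179), although neither passed with all libraries. Without siControl 3 the number called was 8.

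**Figure D4:**
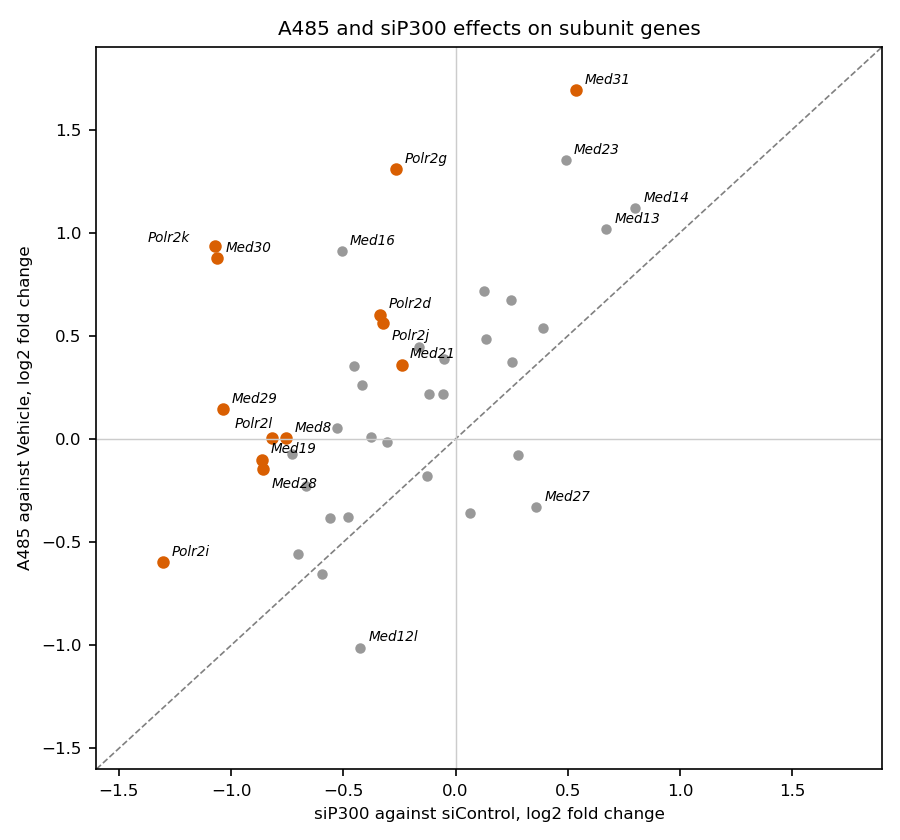
Each point is 1 of 42 members, with its log2 fold change in siP300 against siControl on the x axis and with A485 against Vehicle on the y axis; orange points differ between the 2 effects at edgeR adjusted p under 0.05, and the dashed line marks equal effects. All 13 orange points lie above the line; Polr2k is at -1.07 and 0.94.

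In siP300 and siComb, members with the longest transcripts had a higher median fold change than shorter ones. Of 18 members with longest transcripts under 2000 bases, 9 fell and 1, Med31, rose in siP300, and likewise in siComb, with median log2 fold changes of -0.43 and -0.42. Of 12 members from 2000 to 4000 bases, 4 fell and 0 rose in each, with medians of -0.45 and -0.38. Of 12 members of 4000 bases or more, 1 (Med28) fell and 2 (Med13 and Med14) rose in siP300, and 2 (Med10 and Med28) fell and 5 (Polr2b, Med1, Med13, Med14 and Med23) rose in siComb, with medians of 0.16 and 0.27.

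Protein-coding genes showed medians of -0.06, 0.10 and 0.26 over the 3 classes in siP300 and -0.08, 0.11 and 0.26 in siComb. In siP300, 688 rose and 783 fell of 3393 in the shortest class, 1143 and 987 of 5969 in the middle, and 1345 and 639 of 5387 in the longest. In siComb, 680 rose and 875 fell in the shortest, 1223 and 975 in the middle, and 1326 and 693 in the longest. With A485 the members' medians in the shortest and longest classes were 0.18 and 0.18, against -0.11 and 0.09 for protein-coding genes. The difference of effects called 11 of the 18 shorter members, 1 of the 12 in the middle, Med19, and 1 of the 12 longer ones, Med28, all above 0; of protein-coding genes it called 580 above and 653 below 0 of 3646 in the shortest class and 529 and 933 of 5506 in the longest. The part of transcript length in the calls of members was not tested.

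**Figure D5:**
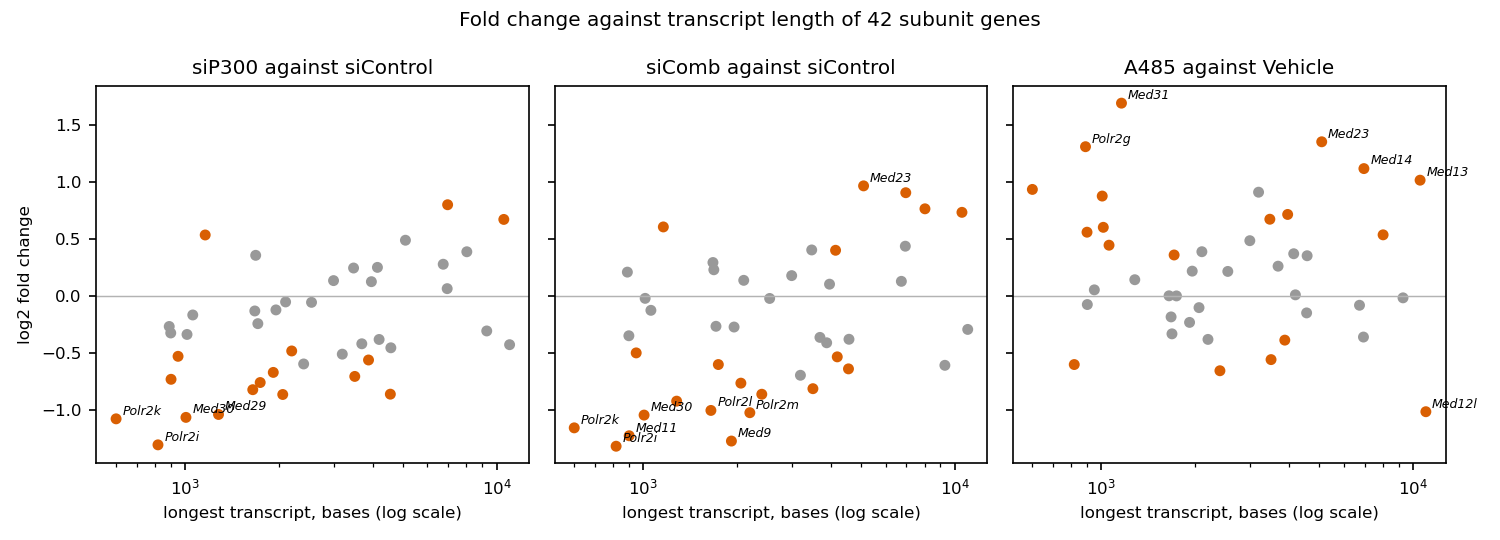
Log2 fold change of 42 members against the length of their longest transcript (log axis, GENCODE vM21) in siP300, siComb and A485; orange points passed the edgeR test. In siP300 and siComb the points at the lowest fold changes, such as Polr2i at -1.30 and -1.31, have short transcripts, and Med14 and Med13, which rose, have long ones.

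Partners of the subunits were read from 7 lists, chosen like the members with earlier results of these data known. Their counts stand beside the shares of all genes called higher and lower. These were 20.2 and 14.0% with SAHA, 31.6 and 26.6% with TSA and 21.4 and 24.2% with A485. In siP300 they were 19.7 and 15.7%, and in siComb 19.6 and 17.1%. A count near these shares is no result about its list. Apart from Cdk8, Cdk19 and Ccnc, genes were named from the 2 with the lowest adjusted p per list and comparison. They are therefore not typical of their lists. Of the CDK8 kinase partners, Ccnc, which encodes cyclin C, rose with A485 (1.39 ± 0.18, adjusted p = 2.93e-05 by edgeR), while the kinase paralog Cdk19 fell with A485 (-0.72 ± 0.23, adjusted p = 0.0206) and rose with TSA (1.07 ± 0.23, adjusted p = 0.00121). Cdk8 passed in no comparison (-0.18 with A485 and 0.48 in siP300). Of 18 general initiation factors, 4 rose and 1 fell with SAHA, 4 rose and 4 fell with TSA, 6 rose and 2 fell with A485, 1 rose and 2 fell in siP300 and 3 rose and 3 fell in siComb. Gtf2b, which positions the polymerase at the start, rose with SAHA and TSA (1.44 ± 0.16, adjusted p = 1.78e-05, and 2.26 ± 0.17, adjusted p = 1.25e-07, edgeR). With A485, Gtf2f2, a subunit of TFIIF, fell (-1.6 ± 0.13, adjusted p = 3.77e-07) and Gtf2a2, a subunit of TFIIA, rose (1.11 ± 0.14, adjusted p = 2.35e-05). Cdk7, the kinase of TFIIH, rose in siComb (0.84 ± 0.18, adjusted p = 0.00184).

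Of 14 TFIID subunits tested, 4 rose and 2 fell with SAHA, 6 rose and 4 fell with TSA, 5 rose and 5 fell with A485, 3 rose and 0 fell in siP300 and 5 rose and 2 fell in siComb. Taf4b fell with A485 and rose with TSA (-2.53 ± 0.24, adjusted p = 1.89e-06, and 1.39 ± 0.22, adjusted p = 0.000116, edgeR). Of 32 pausing and elongation factors tested, 7 rose and 4 fell with SAHA, 11 rose and 8 fell with TSA, 7 rose and 11 fell with A485, 5 rose and 5 fell in siP300 and 8 rose and 6 fell in siComb. With SAHA and TSA these counts lie near the shares of all genes. Nelfa, a subunit of the pausing factor NELF, was at 64.2 ± 8.62 CPM in Vehicle, 435 ± 123 with SAHA and 1070.1 ± 194 with TSA (SD, n = 3; 2.72 and 4.10, edgeR adjusted p = 1.58e-06 and 2.43e-08). Ctr9, of the PAF1 elongation complex, rose with both as well (2.42 and 2.79).

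Of 13 phosphatases of the polymerase tail and assembly factors, 0 rose and 4 fell with SAHA, 0 rose and 10 fell with TSA, 3 rose and 2 fell with A485, 1 rose and 2 fell in siP300 and 1 rose and 1 fell in siComb. With TSA their median was -0.95, against 0.08 for all genes; Gpn1, a GTPase of polymerase assembly, fell (-1.63 ± 0.21, adjusted p = 1.35e-05, edgeR). Of 14 Integrator subunits, which process small nuclear RNAs and end short transcripts, 1 rose and 2 fell with SAHA, 3 rose and 2 fell with TSA, 6 rose and 1 fell with A485, 2 rose and 1 fell in siP300 and 5 rose and 0 fell in siComb. Ints8 rose with A485, siP300 and siComb (1.45, 1.32 and 1.8, edgeR adjusted p = 8.25e-05, 0.000105 and 4.62e-06).

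Of 18 subunits of polymerases I and III, 1 rose and 6 fell with SAHA, 3 rose and 12 fell with TSA, 1 rose and 11 fell with A485, 1 rose and 7 fell in siP300 and 2 rose and 10 fell in siComb. Polr1b, the second large subunit of polymerase I, fell with A485 and TSA (-3.24 ± 0.24, adjusted p = 1.78e-07, and -2.38 ± 0.24, adjusted p = 1.53e-06, edgeR). Twistnb, a stalk subunit of polymerase I, fell in siP300 and siComb (-1.28 ± 0.17, adjusted p = 4.14e-05, and -1.46 ± 0.17, adjusted p = 8.68e-06). In siKat6a and siKat6b none of the genes in these lists passed. Of the 42 members tested, Med7, Med12, Med16, Med24 and Med25 passed against a control in none of the 5 groups SAHA, A485, TSA, siP300 and siComb.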

How the data were processed

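Polyadenylated RNA of pooled mouse morulae was counted per gene in 27 libraries, 3 in each of 9 groups. The deposited files hold raw counts per gene symbol, for which the submitters' processing notes name STAR 2.7.11a, featureCounts and Subread 2.0.6. The notes also list mm10 and GRCh38, and say nothing here of annotation release, strand or paired reads. Of the nonzero counts, 84.5% were even, and halved counts were tried as an alternative. Series-wide and sample files held the same counts in 27 of 27 libraries.

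Genes passing filterByExpr (minimum count 10) were tested with edgeR 4.0.16 (R 4.3.3) by quasi-likelihood after TMM scaling, 1 fit for the 12 inhibitor libraries, 1 for the 15 siRNA libraries and 1 for all 27 for the difference of effects, with p-values adjusted over all genes by Benjamini-Hochberg at 0.05. SE were log2 fold changes over the square root of F. CPM used TMM over all libraries, and levels per kilobase the union of GENCODE vM21 exons. DESeq2 1.42.0 was an alternative, as were other scalings, filters, fits and left-out libraries.

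Members and gene lists were chosen with earlier results of these data known. Text values cover Polr2a, Med1, Med12, Med13, Med13l and Med14 in each comparison. Added to these are, among called members with a mean of at least 10 CPM, up to 4 in each direction by fold change. Outside the difference of effects, their groups also had to show no overlap between libraries. Others are named as parts of role groups or after their values were seen. Totals of 7557591 to 11988857 counts set the precision. The same replicate numbers were not found to mark shared material. A marker of the blood and immune list is not reported here and was left out of the list's sums.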

Additional observations from a re-analysis of the deposited data

Results flagged for a closer look

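The A485 effect and the siP300 effect differed for 13 members, by a test of the difference itself (log2, A485 effect minus siP300 effect). In polymerase II the differences were 1.99 for Polr2k, 1.56 for Polr2g, 0.93 for Polr2d, 0.87 for Polr2j, 0.81 for Polr2l and 0.68 for Polr2i. In Mediator they were 1.92 for Med30, 1.16 for Med29, 1.14 for Med31, 0.75 for Med8, 0.75 for Med19, 0.70 for Med28 and 0.59 for Med21. The agents differ in route and time of exposure as well as in kind, and these cannot be told apart. A difference of effects also takes in the control levels. Vehicle and siControl libraries stood apart for Polr2k, Polr2j, Polr2l, Polr2i, Med30, Med29, Med31 and Med19. Ep300 itself did not pass the test in siP300.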

How the results depend on the processing

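Depth of 7557591 to 11988857 counts, 3 libraries a group and no stated independence of the pools limit these results, and Med12, under 6 CPM in every library, could not be measured closely. Called members numbered 13 to 15 with SAHA, 13 to 18 with A485, 23 to 27 with TSA, 27 to 30 between TSA and A485, 10 to 18 in siP300, 14 to 20 in siComb and 8 to 15 for the difference of effects when 1 library was left out. The lowest for siP300, 10, came without siControl 1, and for the difference of effects, 8, without siControl 3; the cause was not tested. At a fold of at least 2, fewer could pass by construction: 6, 6, 14, 15, 4, 7 and 5 in the same order.

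The replicate numbers did not pair the libraries: same-numbered libraries correlated at -0.0948 to 0.154 in their deviations, and with a replicate block 16, 18, 26, 31, 16, 19 and 12 members were called in that order, and 0 in siKat6a and in siKat6b. Scaling moved the median log2 fold change over all genes from 0.08 to 0.22 with TSA and from 0.27 to 0.39 between TSA and A485 (DESeq2 size factors), and from 0.27 to 0.14 between TSA and A485 and from 0.02 to 0.13 in siKat6b (library size alone), beside the shifts given above. Of 60 named calls, 41 were of at least 2-fold. Under the settings other than the fold, 50 of the 60 held in every one and 10 were lost in at least 1. Apart from the genes named in each comparison, these calls were picked for large fold changes and groups without overlap. Their share held is therefore not that of all called members. Of 38 named values that did not pass, 5 passed in some setting. None of 999 alternatives of the named calls changed direction, and 36 of 654 alternatives of the values that did not pass changed sign.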
